A study of Mus musculus with 52 samples.

Results

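Clone AB is 1 of 4 non-ciliated control clones of Cilia-APEX-IMCD3 cells, a mouse line from the inner medullary collecting duct of the kidney, and is described here against the other 3, named control 1, control 2 and control 3. Its members were chosen by sample label: 4 libraries of AB, numbered 1 to 4, against 12 libraries of the other controls, of 52 libraries in the series. All 4 clones have the control genotype and were labelled non-ciliated, with 10% serum and 1.3 µg of RNA. Control cells received the cytidine base editor BE4-Gam and a guide vector without a target oligonucleotide, and clones were grown from single sorted cells. The libraries of AB are titled AB_Co, whereas those of the other 3 controls carry the prefix BE (BE_Co). The labels do not say what AB stands for. Each clone is 1 line and its 4 libraries are technical replicates, so that the p-values measure the spread between libraries and, in the group of 12, between 3 clones. A property of the clone and a property of its culture cannot be told apart.

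These control clones stand beside base-edited dynein-2 mutants in the study and carry no intended edit. Collecting duct cells are epithelial: claudins and cadherins join them, and channels and transporters move water and salt across them. Zeb1 and Zeb2 are transcription factors known to repress epithelial genes, whereas Ovol, Grhl2 and Esrp proteins are known to maintain the epithelial programme.

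The 16 libraries held 15617398 to 21085697 counts, the lowest total being that of AB library 1, with 13811 to 14562 genes detected. In a principal component analysis of the 1000 most variable genes, components 1 to 3 (71.1%, 14.4% and 10.0% of the variance) separated the 4 clones, with the AB libraries together. AB library 1 stood apart from AB libraries 2 to 4 on component 4 (0.75%), and its correlation with them in log2 CPM (counts scaled to a common library total) was 0.971 to 0.974, against 0.994 to 0.995 among those 3. Results that rest on it are therefore also given without it. The principal cell water channel gene Aqp2 and the potassium channel gene Kcnj1 were at 0 in all 16 libraries, while Tfcp2l1, a collecting duct transcription factor, had 55.3 to 95.4 CPM in AB and 59.9 to 105 in the others.

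The first question was how far AB differed from the other controls. Fold changes are of AB against the 12 other libraries unless a clone is named, and are given on the log2 scale. Where ± is written, it is followed by an approximate standard error derived from the test statistic. Genes were called by edgeR's quasi-likelihood test where the p adjusted by Benjamini and Hochberg (BH) was below 0.05 and the difference reached 1 on the log2 scale. By these limits 747 of 12327 tested genes (6.06%) differed, 383 of them higher in AB (3.11%) and 364 lower (2.95%). With 1 mean per clone 835 were higher and 402 lower, and without control 3 as a whole 645 and 499. Without AB library 1, 332 genes were higher (2.67%) and 317 lower (2.55%) of 12450 tested, and 294 and 272 of the genes called with all 4 libraries were called again. In the fit with 1 mean per clone, 222 genes (1.80%) were higher and 171 (1.39%) lower in AB than in each of the 3 other clones. By the same rule control 1 had 19 genes higher and 90 lower than all others, control 2 had 368 and 668, and control 3 had 110 and 90. AB was thus second to control 2 in the number of genes that set a single clone apart. Against single clones, 888 genes (7.20%) were higher and 395 (3.20%) lower than in control 1, 1276 (10.4%) and 826 (6.70%) than in control 2, and 535 (4.34%) and 435 (3.53%) than in control 3.

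These counts take libraries as samples. With the clone as a block and the correlation of its libraries estimated (voomLmFit), 128 genes were higher (1.04%) and 69 lower (0.560%), and the adjusted p of this fit is given below as that with the clone block. That fit also takes libraries as samples, with AB as a single block. A call in it does not rest on replicate clones of AB. With the libraries of each clone summed, edgeR called 0 genes in either direction, where 289 (higher) and 421 (lower) had an unadjusted p below 0.05, while DESeq2 on the libraries called 391 and 436. An exact permutation test over 4 clone means cannot give a p below 0.25.

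Genes with large increases included hormone, ligand and transcription factor genes. The 12 described here were past the limits against each other clone and without AB library 1, did not overlap between groups and reached a mean of 5 CPM in AB, and all 12 were also called with the clone as a block. Fgf21, a secreted metabolic hormone, had 9.46, 6.39, 6.74 and 5.59 CPM in AB libraries 1 to 4 and a lowest, median and highest value of 0, 0.145 and 0.550 in the other 12 (4.97 ± 0.50, edgeR, BH-adjusted p = 2.16e-06). Every AB library was above the highest control library, and library 1 was the highest of AB. Eomes, a T-box transcription factor of early development, had 6.04, 6.04, 4.70 and 5.59 CPM against 0, 0.291 and 0.727 (4.25 ± 0.60, edgeR, BH-adjusted p = 7.28e-05). Pitx1, a homeobox factor of the hindlimb and the pituitary, had 19.2, 14.8, 10.5 and 12.03 CPM against 0.303, 0.719 and 3.03 (3.50 ± 0.46, edgeR, BH-adjusted p = 3.94e-05). Without library 1 the fold changes of Fgf21, Eomes and Pitx1 were 4.79, 4.22 and 3.32.

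The other 9 were of several kinds. Artn, a ligand of the GDNF family, had 13.01, 11.3, 11.8 and 10.7 CPM in AB against 0.121, 0.774 and 2.86 (3.33 ± 0.47, edgeR, BH-adjusted p = 8.53e-05). Tchh, which encodes the hair follicle protein trichohyalin, had 21.0, 17.5, 21.0 and 20.2 CPM against 0.293, 1.05 and 2.79 (3.85 ± 0.43, edgeR, BH-adjusted p = 8.14e-06). Library values within AB were close for both, and control 3 had the highest control mean (2.14 and 2.61 CPM). The fucosyltransferase gene Fut1 had 9.88 to 13.1 CPM in AB and 0.0498 to 3.19 in the others (log2 fold change 3.26). Fut1 lies next to Fgf21 (chr7:45617606-45621059 and chr7:45613890-45615490, RefSeq GRCm38.p6). Sp6, a zinc finger factor of ectodermal organs, had 11.2 to 12.8 CPM against 0.0488 to 2.85 (3.18), and the potassium channel gene Kcnh2 had 4.02 to 5.79 against 0 to 0.770 (3.89). The adenylyl cyclase gene Adcy1 had 26.9, 36.1, 35.1 and 34.4 CPM against 0.348, 3.68 and 9.36, with library 1 the lowest of AB (2.97). Epb4.1l4b, Ppp1r26 and Oit1 completed the 12, with log2 fold changes of 4.43, 3.05 and 3.004. Control 2 had the lowest mean of the 4 clones for 10 of the 12 genes.

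**Figure D1:**
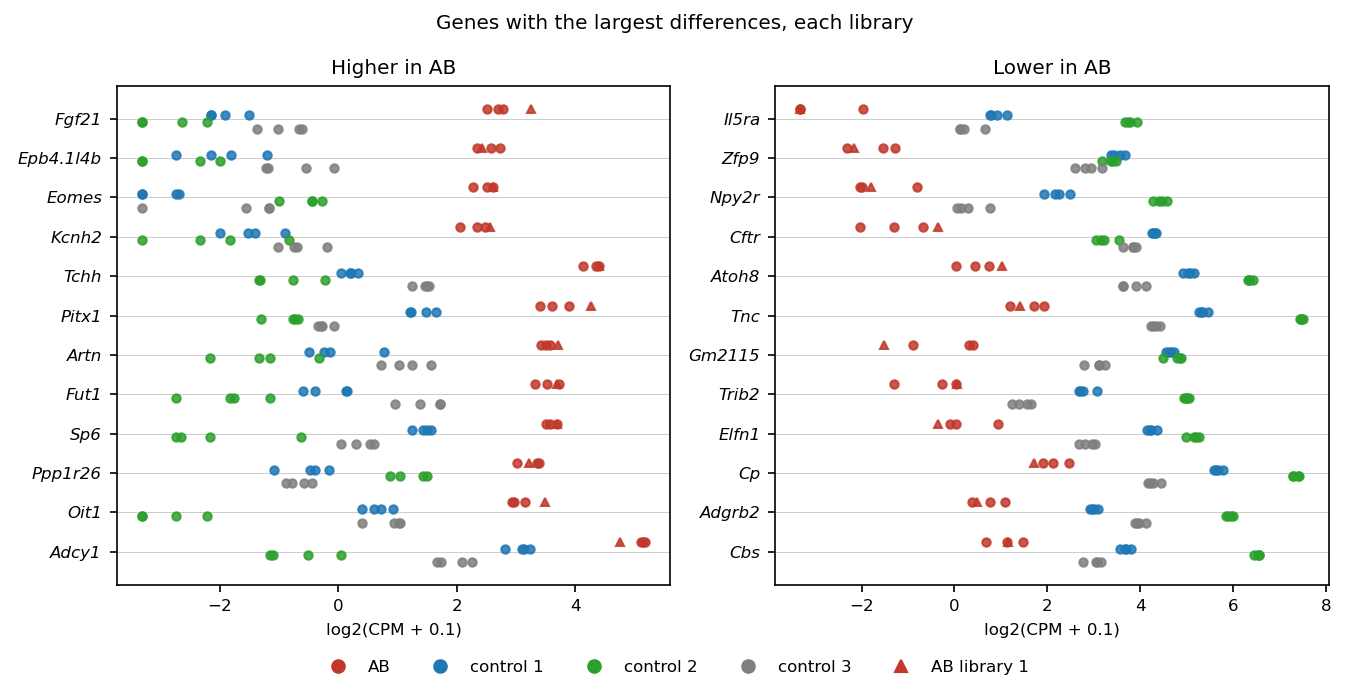
Level of the 12 genes with the largest increases (left) and the 12 with the largest decreases (right) in AB, in CPM on a log2 scale, with 1 point per library, a colour for each clone and a triangle for AB library 1. AB and control points do not overlap for any of these genes, which was a condition of the choice; Fgf21 in AB lies at 5.59 to 9.46 CPM and Zfp9 at 0.101 to 0.314 CPM.

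Of the 12 genes with the largest decreases, 4 lay on chromosome 6, which holds 579 of the 12327 genes tested. Zfp9, a zinc finger gene at chr6:118461950-118479961, had 0.124, 0.101, 0.242 and 0.314 CPM in AB and 5.92, 10.2 and 12.6 in the others (-5.55 ± 0.31, edgeR, BH-adjusted p = 5.66e-09). Its fold changes against controls 1, 2 and 3 were -5.79, -5.63 and -5.15, so that the other clones were close to each other and only AB was near 0. Cftr, the chloride channel of secretory epithelia at chr6:18170687-18322770, had 0.685, 0.304, 0.145 and 0.523 CPM against 8.13, 14.3 and 20.04 (-5.12 ± 0.41, edgeR, BH-adjusted p = 1.89e-07), and -5.59, -4.53 and -5.10 against the single clones. Zfp9 and Cftr were the 2 of these 12 also called with the clone as a block, and the other 10 were not. The basic helix-loop-helix gene Atoh8 had 0.921 to 1.93 CPM in AB and 12.2 to 85.2 in the others (-4.92). Il5ra, an interleukin receptor gene, had 0 CPM in 3 AB libraries and 0.157 in library 4, against 0.979 to 15.1.

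The other 8 lay on other chromosomes, and control 2 had the highest mean for each. Tnc, the gene of the matrix protein tenascin C, had 2.55, 2.18, 3.15 and 3.71 CPM in AB against 18.5, 39.8 and 182 in the others (-4.76 ± 0.91, edgeR, BH-adjusted p = 0.00106). Its means in controls 1, 2 and 3 were 40.3, 176 and 19.7 CPM, and AB was below the nearest of them, control 3, with a log2 fold change of -2.76. Cp, the gene of the copper protein ceruloplasmin, had 3.17 to 5.44 CPM against 17.7 to 169 (-4.22), and Cbs, the first enzyme of transsulfuration, had 1.503 to 2.67 against 6.66 to 93.3 (-4.16). The pseudokinase gene Trib2 had 0.304 to 0.934 CPM against 2.26 to 32.9 (-4.25). Npy2r, Gm2115, Elfn1 and Adgrb2 had log2 fold changes of -5.21, -4.68, -4.24 and -4.18.

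The epithelial list was shifted up and the mesenchymal list down in AB, with few epithelial and more mesenchymal members past the test. Of 25 epithelial genes 24 were tested, 3 rose (3.11% of all genes did) and 0 fell, and the median log2 fold change was 1.08 against 0.0067 over all genes tested. With the clone block 1 of the 3 was still called, Cldn3, while Cldn8 (voomLmFit, adjusted p = 0.0556) and Rab25 (adjusted p = 0.0591) were not. Of 23 mesenchymal genes 16 were tested, 7 fell (2.95% of all genes did) and 0 rose, with a median of -1.64. With the clone block 3 of the 7 were still called, Vim, Zeb1 and Cdh2, while Zeb2, Tagln, Tnc and Col5a1 were not (voomLmFit, adjusted p = 0.0598, 0.108, 0.144 and 0.290). Without AB library 1 the counts were the same and the medians 1.05 and -1.49. The epithelial count turned on the clone compared: 10 members were higher than in control 1, 22 than in control 2 and 3 than in control 3, against 7.20%, 10.4% and 4.34% of all genes, with medians of 0.83, 4.78 and 0.41. Of the mesenchymal genes 9, 7 and 6 were lower than in controls 1, 2 and 3 (3.20%, 6.70% and 3.53% of all genes), with medians of -1.62, -0.73 and -0.83. In the same order 2, 0 and 2 mesenchymal genes were higher, and 5 of 16 had a fold change above 0. In 12 of the 24 epithelial genes the lowest AB library was above the highest control library, as in 7.83% of all genes.

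The 3 epithelial genes that rose encode junction and trafficking proteins. Cldn3, a sealing claudin, had 182, 111, 104 and 103 CPM in AB against 20.6, 39.7 and 52.9 in the others (1.76 ± 0.24, edgeR, BH-adjusted p = 5.25e-05). Library 1 was far above the other AB libraries, and without it the fold change was 1.52. Cldn8, a claudin of the distal nephron, had 2.80, 1.67, 2.86 and 2.82 CPM against 0, 0.180 and 0.682 (3.30 ± 0.55, edgeR, BH-adjusted p = 0.000317). Rab25, a small GTPase of epithelial recycling endosomes, had 20.9, 17.0, 16.8 and 16.3 CPM against 0.0977, 4.82 and 6.71 (2.23 ± 0.65, edgeR, BH-adjusted p = 0.0183), with means of 5.57, 0.340 and 5.45 in controls 1, 2 and 3. For all 3, no AB library overlapped a control library.

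Most epithelial genes did not pass the test, and for most of these control 2 lay far below controls 1 and 3. The E-cadherin gene Cdh1 had 343 to 405 CPM in AB and 3.36 to 348 in the others (0.97, edgeR, BH-adjusted p = 0.484). Epcam, an epithelial adhesion gene, had 345 to 465 against 2.24 to 265 (1.38, edgeR, BH-adjusted p = 0.297), and the splicing regulator Esrp1 had 157 to 202 against 0.753 to 128 (1.47, edgeR, BH-adjusted p = 0.274). Epcam and Esrp1 did not overlap between groups, whereas Cdh1 did. The summed level of the list was 5288 to 7234 CPM in AB, 3917 to 4063 in control 1, 518 to 528 in control 2 and 5137 to 5218 in control 3.

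The Rab25 promoter is shown because it holds CACCTG, the E-box that Zeb and Snail factors are known to bind. These are the 250 bases before the RefSeq start (GRCm38.p6, chr3:88548280-88548529, minus strand), with matches on either strand in capitals.
Rab25: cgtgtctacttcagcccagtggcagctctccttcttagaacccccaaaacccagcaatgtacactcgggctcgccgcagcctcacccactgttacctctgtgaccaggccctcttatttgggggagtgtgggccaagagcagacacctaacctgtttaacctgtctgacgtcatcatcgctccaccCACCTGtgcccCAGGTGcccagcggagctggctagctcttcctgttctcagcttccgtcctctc
CACCTG or its reverse complement CAGGTG occurred 2 times, beginning 64 and 53 bases before the start, and at least once in 17.2% of 32851 promoter windows of this length. The Cldn3 window held no match, and no window is given for Cldn8. A match describes letters only.

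In 7 of the 16 mesenchymal genes tested every AB library was below the lowest control library, as in 8.43% of all genes, and in 1 every AB library was above the highest. Vim, which encodes the intermediate filament vimentin, had 60.4, 43.8, 41.8 and 50.8 CPM in AB against 242, 397 and 669.6 (-3.14 ± 0.35, edgeR, BH-adjusted p = 7.13e-06). Zeb1, on chromosome 18, had 2.24, 2.64, 3.98 and 2.77 CPM against 22.1, 37.5 and 84.4 (-4.03 ± 0.48, edgeR, BH-adjusted p = 1.31e-05), and -3.67, -4.78 and -3.12 against controls 1, 2 and 3. Both were far below every control library. Zeb2 had 3.73 to 8.63 CPM against 21.3 to 37.3 (-1.98 ± 0.22, edgeR, BH-adjusted p = 6.36e-06). The N-cadherin gene Cdh2 had 256 to 348 CPM against 523 to 981 (-1.30), and Tagln, an actin-binding protein of smooth muscle, had 1.12 to 2.68 against 4.40 to 12.1 (-2.09). The fibrillar collagen gene Col5a1 (-2.81) and Tnc were the remaining members that fell. Fn1, the fibronectin gene, overlapped between groups with 1261 to 3193 CPM in AB and 2435 to 4174 in the others (-0.37, edgeR, BH-adjusted p = 0.2003). Twist1, Thy1 and Col3a1 were at 0 in all 16 libraries.

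**Figure D2:**
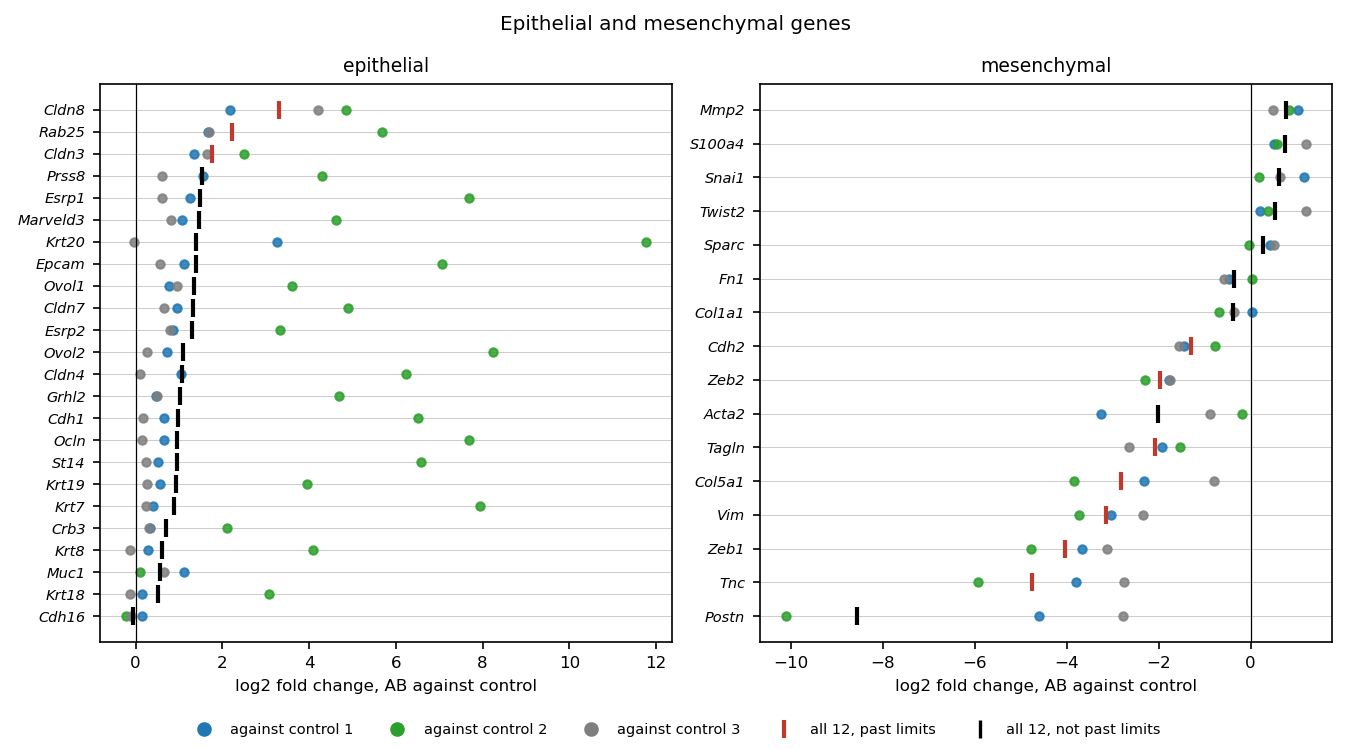
Log2 fold change of AB against control 1, 2 and 3 (points) and against all 12 control libraries (bars, red where the test and the fold limit were passed) for tested members of the epithelial (left) and mesenchymal (right) lists. Epithelial points against control 2 (median 4.78) lie far to the right of those against control 1 (0.83) and control 3 (0.41), while Vim, Zeb1 and Tnc lie below 0 against each clone. The extreme points of genes near 0 in 1 clone, such as Krt20 and Postn against control 2, depend on the prior count of the fit.

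Genes of the Atf4 and endoplasmic reticulum (ER) stress response formed a further group. Atf4 is a transcription factor whose translation rises under amino acid shortage and unfolded protein stress, and Ddit3, Trib3, Nupr1 and Fgf21 are among its known targets. Of 31 such genes 30 were tested, 5 rose (Fgf21, Trib3, Nupr1, Ddit3 and Ddit4) and 1 fell (Gdf15), against 3.11% and 2.95% of all genes, with a list median of 0.26. Fgf21, Trib3 and Nupr1 were still called with the clone block, while Ddit3, Ddit4 and Gdf15 were not (voomLmFit, adjusted p = 0.0549, 0.0780 and 0.127). The counts were the same without AB library 1, with a median of 0.16. Trib3, a pseudokinase that binds Akt, had 209, 184, 177 and 140.1 CPM in AB against 47.9, 53.04 and 64.8 in the others (1.70 ± 0.090, edgeR, BH-adjusted p = 4.22e-09), and 1.84, 1.72 and 1.55 against the single clones. Nupr1, a small stress-induced chromatin protein, had 60.2, 37.7, 39.9 and 35.1 CPM against 13.4, 15.2 and 17.5 (1.5 ± 0.11, edgeR, BH-adjusted p = 1.03e-07), and 1.52, 1.47 and 1.51 against the single clones. For both, the 3 other clones were nearly alike and every AB library was higher.

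Ddit3, the gene of the factor Chop, had 66.7, 52.9, 47.1 and 37.6 CPM against 9.79, 19.14 and 28.5 (1.43 ± 0.26, edgeR, BH-adjusted p = 0.000626), with its smallest difference, 0.93, against control 2. Ddit4, an inhibitor of mTORC1, had 83.3 to 134 CPM against 30.3 to 61.2 (1.19). Library 1 was the highest of AB for Fgf21, Trib3, Nupr1 and Ddit3. In the other direction Gdf15, a stress-induced hormone, had 106 to 235 CPM in AB and 278 to 481 in the others (-1.35, edgeR, BH-adjusted p = 0.000297). Chac1, which degrades glutathione, had 66.4 to 84.8 CPM against 32.7 to 44.8, and its fold change of 0.98 lay just under the limit, as did that of Phgdh of serine synthesis (0.97). Atf4 itself had 474 to 814 CPM against 447 to 559.7 (0.27, edgeR, BH-adjusted p = 0.0628), and Asns, encoding asparagine synthetase, had 233 to 290.3 against 182 to 294 (0.13, edgeR, BH-adjusted p = 0.538). Both overlapped between groups.

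The promoters of Nupr1 and Fgf21 are shown because, of the 5 genes that rose, they hold TGATGNAA, the core of the C/EBP-ATF response element. They are the 250 bases before the RefSeq start in GRCm38.p6, on the minus strand at chr7:126625471-126625720 and chr7:45615491-45615740, with matches on either strand in capitals.
Nupr1: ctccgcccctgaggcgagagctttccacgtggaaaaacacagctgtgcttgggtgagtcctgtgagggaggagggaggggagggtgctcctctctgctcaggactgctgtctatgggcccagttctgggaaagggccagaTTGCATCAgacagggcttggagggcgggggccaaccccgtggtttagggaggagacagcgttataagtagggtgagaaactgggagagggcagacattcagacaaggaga
Fgf21: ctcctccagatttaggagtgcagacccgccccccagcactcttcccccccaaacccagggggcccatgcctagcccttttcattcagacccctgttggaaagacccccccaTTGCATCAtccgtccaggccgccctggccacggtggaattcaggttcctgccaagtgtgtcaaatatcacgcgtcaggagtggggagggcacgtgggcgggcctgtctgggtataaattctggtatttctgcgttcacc
Each held 1 match, as TTGCATCA, beginning 110 and 139 bases before the start. At least 1 match occurred in 3.45% of 32851 promoter windows of this length, and none was found in the windows of Trib3, Ddit3 and Ddit4.

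Interferon-response and antigen presentation genes included 11 increases in the library-level test. Of 36 genes 27 were tested, 11 rose (3.11% of all genes) and 2 fell (2.95%), with a median of 0.66. Of the 11, 7 were higher than in each other clone, as were 1.80% of all genes. With the clone block 2 of the 11 were still called, Ifih1 and H2-K1, as were both that fell, while the other 9 had an adjusted p of 0.0624 to 0.474 (voomLmFit). Among sensors of viral RNA, Ifih1, encoding MDA5, had 13.5, 16.8, 18.96 and 19.5 CPM in AB against 0.440, 1.96 and 6.54 (2.55 ± 0.56, edgeR, BH-adjusted p = 0.00297), and Ddx58, encoding RIG-I, had 20.7 to 31.7 against 8.01 to 18.6 (1.13). No AB library overlapped a control library for either. The peptide transporter genes Tap1 and Tap2 had 3.92 to 5.89 and 4.18 to 6.97 CPM in AB against 0.681 to 2.42 and 1.20 to 2.91 (1.93 and 1.46). The class I heavy chain gene H2-K1 had 231 to 339 CPM against 91.8 to 162 (1.02), and was the 1 member no longer called without AB library 1 (0.89). Oas1a and Oasl2 of the oligoadenylate synthetase family had 1.27 to 3.30 and 1.12 to 1.62 CPM against 0 to 0.719 and 0.0606 to 0.620. Rtp4, Irf7, Parp14 and Xaf1 rose by 1.97, 1.42, 1.25 and 1.25 on the log2 scale.

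The 2 members that fell belong to the Ifit family of RNA-binding proteins. Ifit3 had 49.0, 29.3, 34.4 and 40.7 CPM in AB against 149, 169.5 and 371 (-2.55 ± 0.34, edgeR, BH-adjusted p = 4.30e-05), and Ifit2 had 55.7 to 69.1 against 117 to 184 (-1.29). B2m, the light chain of class I molecules, had 181 to 231 CPM against 179 to 225 (-0.065, edgeR, BH-adjusted p = 0.581). Tap1, Tap2, Oas1a and Oasl2 were below 10 CPM in every library, and the summed level of the list was 875 to 1067 CPM in AB and 878 to 1103 in the other 12 libraries.

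**Figure D3:**
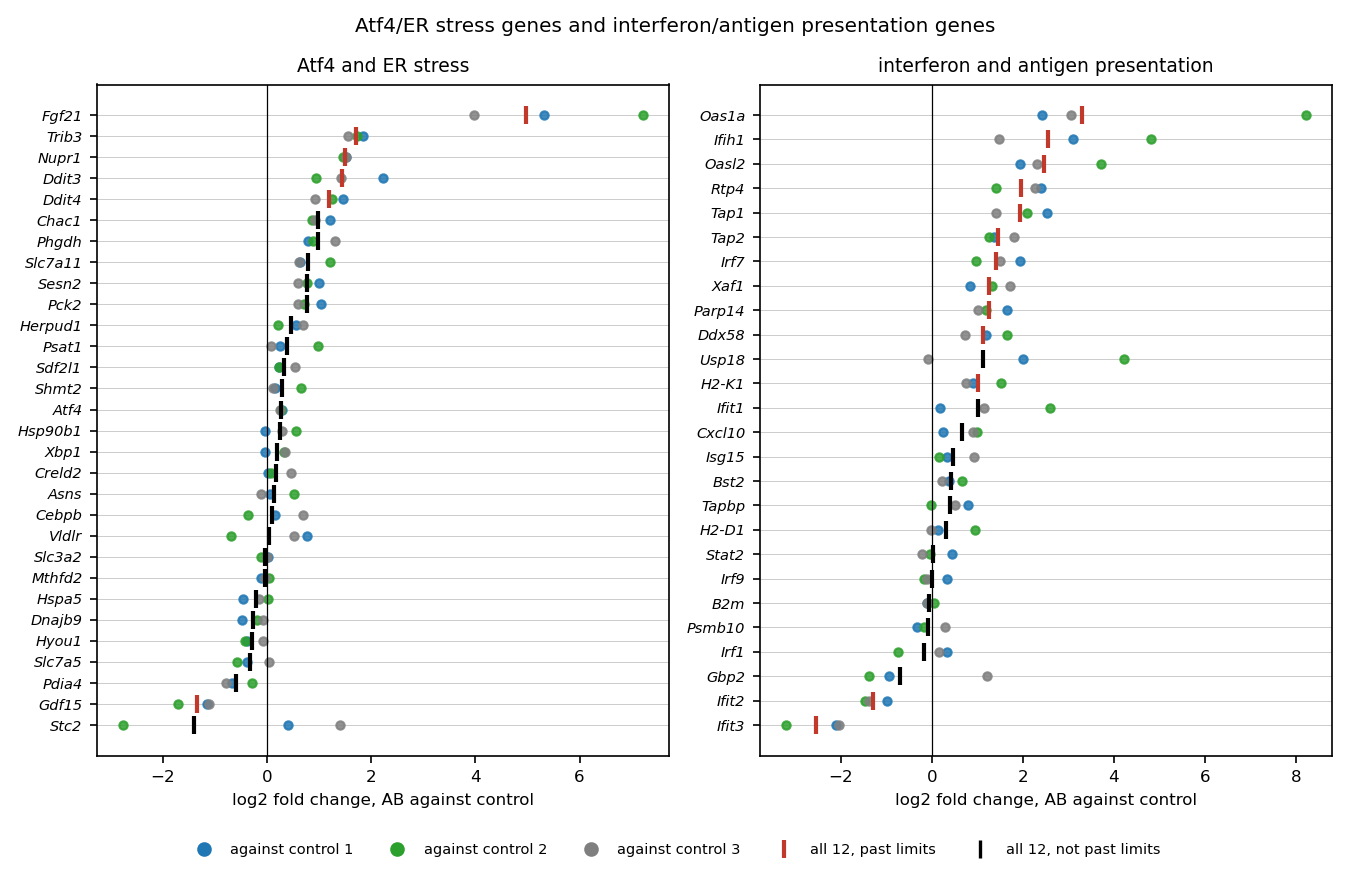
Log2 fold change of AB against control 1, 2 and 3 (points) and against all 12 control libraries (bars, red where the limits were passed) for Atf4 and ER stress genes (left) and interferon and antigen presentation genes (right). The 3 points of Nupr1 lie together at 1.47 to 1.52, and Ifit2 and Ifit3 lie below 0 among members that are mostly above 0. The points of Fgf21 and Oas1a against control 2, where both were near 0, depend on the prior count of the fit.

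Osmotic genes were examined because the inner medulla is a tissue of high and changing salt concentration. Of 6 tested genes of the osmotic response 3 fell (2.95% of all genes did) and 0 rose, and Sgk1 and Slc6a6 but not Aqp1 (voomLmFit, adjusted p = 0.363) were still called with the clone block. The water channel gene Aqp1 had 0.747, 0.507, 0.824 and 1.57 CPM in AB against 2.43, 16.8 and 30.5 (-4.12 ± 0.84, edgeR, BH-adjusted p = 0.00177). Sgk1, a kinase that regulates sodium transport, had 26.6, 22.5, 23.5 and 26.4 CPM against 60.4, 119.5 and 173 (-2.24 ± 0.30, edgeR, BH-adjusted p = 5.41e-05), and the taurine transporter gene Slc6a6 had 82.0, 135, 139 and 143 against 302, 347 and 675 (-1.83 ± 0.30, edgeR, BH-adjusted p = 0.000297). All 3 were below every control library, as were 8.43% of all genes, and Aqp1 and Slc6a6 lie on chromosome 6.

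Cell cycle lists moved little apart from Cdkn1a, the gene of the cyclin-dependent kinase inhibitor p21. It was the 1 of 19 tested p53 targets that rose (3.11% of all genes did), also with the clone block, with 298, 269, 237 and 238 CPM in AB against 23.3, 108 and 125 (1.602 ± 0.42, edgeR, BH-adjusted p = 0.00904) and 1.27, 3.31 and 1.08 against the single clones. The mitosis list (24 tested) and the DNA replication list (29 tested) had 0 calls in either direction by edgeR, with medians of -0.0085 and -0.077. Mki67, the proliferation marker, had 287, 452, 427 and 442 CPM in AB against 384, 487 and 552, with only library 1 below the control range.

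Imprinted genes gave 1 increase and 4 decreases among 16 tested, against 3.11% and 2.95% of all genes. With the clone block none of the 5 was still called (voomLmFit, adjusted p = 0.175 for H19, 0.0870 for Peg10, 0.354 for Peg3, 0.866 for Igf2 and 0.124 for Phlda2). H19, a long non-coding RNA, had 2.68, 1.93, 2.13 and 2.67 CPM in AB against 9.73, 21.5 and 91.4 (-4.05 ± 0.81, edgeR, BH-adjusted p = 0.00148). The retrotransposon-derived gene Peg10 on chromosome 6 had 74.1, 130.4, 147 and 142 CPM against 234, 340.5 and 793 (-1.87 ± 0.41, edgeR, BH-adjusted p = 0.00287), and Peg3 had 63.3 to 243 against 382 to 748 (-1.52). These 3 were below every control library, as were 8.43% of all genes. Igf2, the growth factor gene beside H19, was low throughout, at 0.0523 to 0.101 CPM against 0 to 3.81, and was not called with any 1 library of AB or of control 2 left out. Phlda2, which restrains placental growth, had 1.41 to 2.55 CPM against 0 to 0.853 (3.02). Among 15 tested collagen genes 3 fell (2.95% of all genes) and 0 rose, and none of the 3 was still called with the clone block (voomLmFit, adjusted p = 0.290, 0.445 and 0.524 for Col5a1, Col4a1 and Col4a2). Besides Col5a1, the basement membrane chains Col4a1 and Col4a2 had 0.0485 to 0.203 and 0 to 0.157 CPM in AB and 0.341 to 3.07 and 0.392 to 11.9 in the others.

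Genes of the cilium were examined because the series concerns the dynein-2 chains Wdr34 and Wdr60. Dynein-2 is the motor that carries intraflagellar transport trains back to the ciliary base. Of 10 tested dynein-2 genes 0 were called in either direction by edgeR, and Wdr34 and Tctex1d2 had an adjusted p under 0.05 at a smaller fold. Wdr34 had 40.6, 30.9, 28.2 and 25.8 CPM in AB against 19.9, 24.6 and 30.05 (0.38 ± 0.12, edgeR, BH-adjusted p = 0.0294), with overlap between groups and a fold change of 0.23 without library 1. Wdr60 had 26.1, 24.5, 25.7 and 24.1 CPM against 18.3, 24.2 and 26.8 (0.12 ± 0.10, edgeR, BH-adjusted p = 0.422). Dync2h1, the heavy chain gene, had 11.3, 28.3, 26.1 and 29.2 CPM against 18.4, 22.6 and 26.1, so that a fold change of 0.075 became 0.31 without library 1. Of 27 intraflagellar transport genes 1 rose (3.11% of all genes did) and 0 fell. This was Ttc30a1, with 4.31 to 5.18 CPM against 0.990 to 3.39, and it was not called with the clone block (voomLmFit, adjusted p = 0.190).

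Of 9 tested hedgehog genes 1 fell (2.95% of all genes did). All 9 had a fold change below 0, with a list median of -0.50, and of -0.32 without AB library 1. Smo, the membrane transducer of the pathway, lies on chromosome 6 and had 68.1, 96.1, 93.8 and 88.4 CPM in AB against 183, 216 and 278 (-1.39 ± 0.14, edgeR, BH-adjusted p = 1.67e-06). Its groups were well apart, and it was also called with the clone as a block. Ptch1, the receptor gene, had 4.61 to 18.2 CPM against 17.8 to 30.5 (-0.67, edgeR, BH-adjusted p = 0.0691), and Shh was at 0 in all 16 libraries.

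The lists that follow are read against 3.11% of all genes higher and 2.95% lower. Clustered histone genes had 2 increases and 10 decreases among 40 tested, with a median of -0.87, and 1 and 14 without AB library 1. Hist2h2be was still called with the clone block, and none of the 10 that fell was. Hist2h2be on chromosome 3 had 24.7, 29.7, 29.1 and 30.2 CPM against 5.18, 6.79 and 9.33 (1.995 ± 0.13, edgeR, BH-adjusted p = 1.96e-08), whereas the 10 that fell had means of 0.156 to 3.22 CPM in AB. Histone genes are near-identical copies, so their counts are uncertain. Kidney transcription factors had 2 increases among 17, Ehf and Elf3, of which neither was called without AB library 1, and 0 decreases. Their log2 fold changes were 1.82 and 1.13, and 1.87 and 0.997 without that library. Ehf also lost its call without AB library 2, 3 or 4. The clone block kept Ehf (voomLmFit, adjusted p = 0.0425) and not Elf3 (voomLmFit, adjusted p = 0.104). Pax8, a factor of the kidney lineage, had 128 to 158 CPM against 218 to 306, -0.79 and under the fold limit. Hox genes had 2 increases (Hoxd3 and Hoxd10, neither called without AB library 1 or 3) and 2 decreases (Hoxa2 and Hoxa3, on chromosome 6) among 24. Wnt genes had 1 increase and 1 decrease among 13 (Wnt6 and Dkk3), and 1 and 2 without AB library 1, and immediate early genes had 0 and 2 among 21 (Fos and Dusp1), and 0 and 4 without AB library 1. Dusp1 was not called without AB library 4, any library of control 1 or library 2, 3 or 4 of control 3. None of the called Hox, Wnt and immediate early genes was still called with the clone block (voomLmFit, adjusted p = 0.0814 to 0.879).

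Glycolysis and hypoxia genes had 1 increase and 2 decreases among 31, again against 3.11% and 2.95% of all genes, and 2 and 2 without AB library 1. The oxygen sensor gene Egln3 had 0.996 to 1.88 CPM in AB and 0 to 0.124 in the others, and Eno2 and Slc16a3 fell, Slc16a3 not being called without AB library 2, 3 or 4. Nrf2 and metallothionein genes had 2 increases (Nqo1 and Gstm1) and 1 decrease (Gclc) among 15. Of 3 tested germline genes 1 rose, Brdt, with 1.65 to 2.64 CPM against 0.114 to 0.947. Cholesterol synthesis (25 tested), heat shock (15) and cytosolic ribosomal protein genes (76) had 0 calls in either direction by edgeR. Egln3 and Gstm1 were still called with the clone block, while Eno2, Slc16a3, Nqo1, Gclc and Brdt were not (voomLmFit, adjusted p = 0.190, 0.711, 0.376, 0.184 and 0.205). The ribosomal protein median of 0.35 became 0.095 without AB library 1.

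Markers of other cell types were mostly at or near 0, and their calls are read against 3.11% of all genes higher and 2.95% lower. Of 11 genes of other nephron segments 2 were tested and 1 fell: Lrp2, the endocytic receptor megalin, had 7.47, 13.6, 11.3 and 13.1 CPM in AB against 24.0, 92.7 and 278 (-3.50 ± 0.81, edgeR, BH-adjusted p = 0.00431), while Slc34a1 and Nphs1 were at 0. Lrp2, Hsd11b2 and Scnn1a were not called with the clone block (voomLmFit, adjusted p = 0.159, 0.525 and 0.668), whereas Pdgfra was. Of 8 fibroblast genes 2 were tested and Pdgfra rose, with 0.747 to 1.36 CPM in AB against 0 to 0.0999. Col3a1 was at 0, and the summed level of that list was 3.86 to 4.67 CPM in AB and 2.60 to 6.43 in the others. Of 8 immune genes 4 were tested and 0 called, with Cd3e and Itgam at 0 and sums of 30.2 to 34.5 and 36.8 to 67.0 CPM. Of 8 endothelial and 9 intercalated cell genes 1 and 2 were tested and 0 called, with sums of 10.6 to 22.0 and 22.2 to 31.4 CPM in AB against 7.48 to 10.9 and 8.02 to 28.5. Of 14 principal cell genes 6 were tested, Hsd11b2 rose (1.20, not called with any 1 AB library left out) and Scnn1a fell (-1.16, not called without AB library 3), with sums of 60.9 to 103 and 70.6 to 114 CPM.

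The differences had a chromosomal pattern. The median log2 fold change of AB was -0.59 over 579 tested genes of chromosome 6 and -0.40 over 328 of chromosome 18, which are ratios of 0.666 and 0.756, and 0.38 over 599 of chromosome 3. Against controls 1, 2 and 3 the medians were -0.52, -0.54 and -0.63 for chromosome 6 and -0.41, -0.37 and -0.37 for chromosome 18. The shift ran along both chromosomes: medians of the 19 windows of 30 neighbouring genes on chromosome 6 were -0.77 to -0.39, and those of the 10 on chromosome 18 were -0.48 to -0.32. The 353 windows outside chromosomes 3, 6 and 18 had medians of -0.53 to 0.31. Shifts against a single clone occurred elsewhere too: chromosome 1 had a median of 0.62 against control 2, with 0.0062 and 0.018 against controls 1 and 3, and chromosome 19 had -0.26 against control 3, with 0.030 and -0.057 against controls 1 and 2.

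On chromosome 3 the shift was larger over the first part. The first 13 windows (chr3:5218218-103003914, 390 genes) had medians of 0.35 to 0.69, and the last 6 (chr3:103020431-146499793, 180 genes) of 0.064 to 0.20, a division made after the values were seen. Over the first part the median was 0.49, with 0.40, 0.42 and 0.81 against controls 1, 2 and 3. Over the last part it was 0.15, with -0.041, 0.13 and 0.41, so that against control 3 the last part was raised as well. Taken over genes of at least 5 CPM, library medians were -0.58 in each for chromosome 6, 0.44 to 0.52 for the first part of chromosome 3, and -0.49 in library 1 and -0.37 to -0.33 in libraries 2 to 4 for chromosome 18.

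Of the 364 genes lower in AB, 97 (26.6%) lay on chromosomes 6 and 18, which hold 7.36% of the genes tested, and of the 383 higher genes 51 (13.3%) lay on chromosome 3, which holds 4.86%. On chromosome 6, 70 genes were lower and 2 higher, and 26 of the 70 were still at least 1 below the chromosome's own median. Met, the receptor of hepatocyte growth factor, had 149, 221, 233 and 229.7 CPM in AB against 461, 628 and 662 (-1.497 ± 0.14, edgeR, BH-adjusted p = 9.10e-07). Zyx, encoding the focal adhesion protein zyxin, had 206, 179.8, 164 and 158 CPM against 334, 371 and 414 (-1.06 ± 0.074, edgeR, BH-adjusted p = 5.17e-08). Both are abundant genes of chromosome 6 and lay below every control library. The part of the chromosome-wide shifts in the gene lists above was not tested.

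The 4 tested Y-linked genes were each lower in AB without overlap (8.43% of all genes) but under the fold limit. Ddx3y, an RNA helicase gene, had 52.5, 66.1, 70.8 and 68.0 CPM against 99.1, 121 and 161 (-0.98 ± 0.15, edgeR, BH-adjusted p = 0.000124). Kdm5d, Uty and Eif2s3y had log2 fold changes of -0.89, -0.69 and -0.59. The median of the 4 was -0.79, and -0.69 without AB library 1.

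**Figure D4:**
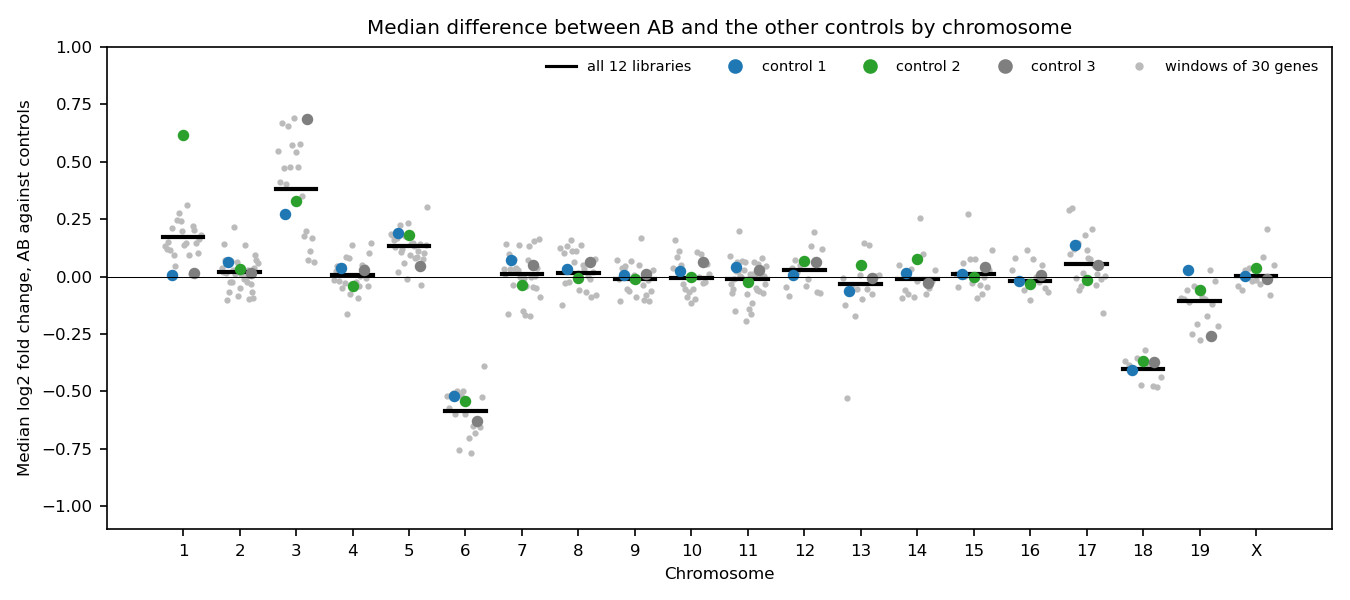
Median log2 fold change of AB by chromosome, against all 12 control libraries (black lines) and against control 1, 2 and 3 (coloured points), with windows of 30 neighbouring genes in grey. Chromosomes 6 (-0.59) and 18 (-0.40) lie below 0 and chromosome 3 (0.38) above 0 against each clone.

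AB library 1 differed from the other AB libraries, and the difference followed transcript length. In it 865 genes (7.02% of 12327) lay at least 1 in log2 CPM from the mean of libraries 2 to 4, 273 higher (2.21%) and 592 lower (4.80%), against 0.690% to 1.29% in the other 15 libraries, each compared with its own clone. With 1 library there is no test. In 4 equal classes of transcript length (GENCODE vM21, 11876 genes), the median difference of library 1 was 0.46 for the shortest transcripts and 0.11, -0.13 and -0.53 for longer ones. Across genes, which are not independent replicates, Spearman's rho of this difference with length was -0.645 in library 1 and -0.310 to 0.236 in libraries of the other clones. The rho of length with the AB fold change was -0.198 with library 1 and 0.013 without it.

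The 10 genes with the largest such differences were all lower in library 1. The ubiquitin ligase gene Cbl had 7.47, 49.2, 43.2 and 51.1 CPM in AB libraries 1 to 4, H2-T24 had 1.06, 9.34, 11.1 and 8.73, and Arfgef3 had 3.11, 25.4, 23.8 and 27.6. Zbed6, Lnpep, Zfp369, D830031N03Rik, Shroom4, Lcor and the integrin gene Itga2 had differences of -2.68 to -2.34 on the log2 scale. The 76 ribosomal protein genes tested had a median difference of 0.83 in the other direction, and Rpl41 had 2226, 1074, 1043 and 962 CPM. Arfgef3 was called only without library 1 (log2 fold change 1.92, edgeR, BH-adjusted p = 0.0376), and with it had 1.56 (edgeR, BH-adjusted p = 0.0804).

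**Figure D5:**
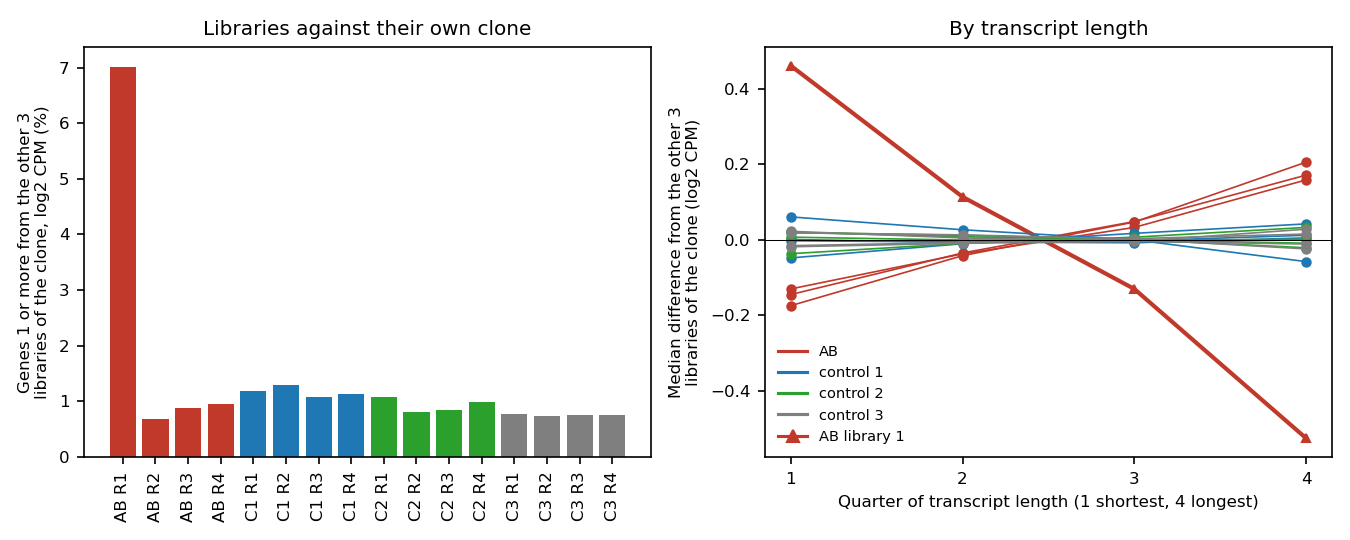
Left, percent of tested genes at least 1 in log2 CPM from the mean of the other 3 libraries of the same clone, for each of 16 libraries. Right, median difference from the other 3 libraries by class of transcript length, from the shortest to the longest. AB library 1 (7.02%) stands above the rest, and its line falls from 0.46 to -0.53.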

How the data were processed

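RNA sequencing was analysed in 16 control libraries of 4 clones, with the other 36 of 52 libraries used only for the values over 13 clones. The authors deposited whole-number counts per gene symbol for each library, made from paired-end reads aligned to GRCm38 (mm10) and counted with featureCounts, after library preparation with a SMARTER kit. The strand setting and the treatment of multi-mapped reads are not given in the sources used here.

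Counts were filtered with filterByExpr, scaled with TMM and tested with the quasi-likelihood F-test of edgeR 4.0.16 (limma 3.58.1, R 4.3.3), AB against 12 libraries, and in a second fit with 1 mean per clone. Calls required a p below 0.05 after Benjamini-Hochberg adjustment and a difference of 1 or more on the log2 scale. Standard errors are the size of the fold change divided by the square root of the F statistic, and are approximate. Depth was 15617398 to 21085697 counts, so that 3 counts are under 0.2 CPM. Numbers of replicates do not pair libraries (closing section). Chromosomes and transcript lengths came from gene symbols in an annotation of the build, of which 24295 of 24421 matched (99.5%).

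Members and lists were chosen with earlier results of these data known. Named genes were the 12 largest changes in each direction among genes that met set conditions. These were called in both fits and without AB library 1, did not overlap and reached 5 CPM in the higher group. Also named were up to 4 members of each list, Wdr34, Wdr60 and Dync2h1, and 10 genes that set AB library 1 apart. Abundant called genes of chromosome 6, the chromosome with its median furthest from 0, were added. Further list members, among them Cdh1, Epcam, Esrp1, Fn1, B2m, Chac1, Phgdh, Atf4, Asns, Ddx58, Tap1, Irf7 and Ptch1, were named after their values were seen. Motifs were searched on both strands. Alternatives were DESeq2 1.42.0, RLE factors, other filters and thresholds, blocks by replicate number or clone, clones summed, and libraries or clones left out. The fits were tested on simulated counts in which clones differed only by changes added to AB. That test could not show false calls that arise from differences between clones. A list of mitochondrial genome genes had 0 members in the files. 1 gene is not reported here.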

Additional observations from a re-analysis of the deposited data

Results flagged for a closer look

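AB library 1 stood apart from the other AB libraries in the share of counts held by the 50 most abundant genes (10.4%) and in its 865 genes at least 1 in log2 CPM from libraries 2 to 4. A sample was counted as apart when its gap to the next, divided by the range of the 4 libraries, passed Dixon's critical value, which chance passes in about 1 of 20 groups. Of 124 named genes tested in AB, 27 had such a library, 22 of them library 1, while controls 1, 2 and 3 had 8, 14 and 5 of 124. These include 10 genes chosen because library 1 differed most in them. Without those, 21 of 114 had such a library in AB, 16 of them library 1, against 7, 14 and 4 of 114.

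Library 1 was the highest of AB for the epithelial genes Cldn3 (182 CPM) and Rab25 (20.9), the endothelial gene Egfl7 (22.0), the dynein light chain gene Dynll1 (528), Fos (46.7) and the replication gene Mcm7 (558). It was also the highest for the ribosomal protein genes Rplp0 (2968 CPM), Rpl8 (2984) and Rpl41 (2226). It was the lowest for the proliferation genes Top2a (869 CPM) and Mki67 (287), the glutathione synthesis gene Gclc (54.3), Slc6a6 (82.0), Met (149) and Kdm5d (21.7). For Slc16a3 it had 0.747 CPM, also the highest. Library 1 was the lowest too for Arfgef3 (3.11 CPM), Zfp369 (2.30), Zbed6 (16.2), D830031N03Rik (14.6), Lnpep (13.1) and Shroom4 (5.85), genes chosen for that difference. The other libraries that stood apart were library 4 for Il5ra (0.157 CPM), Npy2r (0.471), Ptprc (0.627) and Ttc30a1 (5.18), and library 2 for Cldn8 (1.67).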

How the results depend on the processing

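The numbers of genes higher and lower in AB (383 and 364) stayed within 1.5 times with DESeq2 (391 and 436), RLE factors (381 and 365), at least 1 count in any library (536 and 378) and without control 1 or 2 as a whole. They were 181 and 219 with at least 10 counts in every library (67 and 90 against all 3 clones), 1544 and 1663 with no limit on the fold (1239 and 1226), and 238 lower at an adjusted p under 0.01. With 1 mean per clone 835 were higher, and without control 3 as a whole 645 were higher, with 497 higher and 294 lower than both other clones. With clones summed both counts were 0, and with the clone as a block in voomLmFit 128 and 69. The causes were not tested. With a difference of 0.5 in place of 1, AB library 1 differed in 4564 genes. AB libraries 2 to 4 against controls 1 and 3 gave 420 and 303, and TMM factors from genes outside chromosomes 3, 6 and 18 gave 372 and 373, both chosen after seeing the data.

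Leaving out each AB library gave 332 to 367 higher and 294 to 317 lower (220 to 243 and 163 to 172 against all 3 clones), and each other library 367 to 410 and 321 to 387 (214 to 227 and 162 to 169). With each AB library left out, chromosome medians were -0.593 to -0.581 for 6, -0.427 to -0.391 for 18 and 0.373 to 0.380 for 3. Named genes that lost their call without some single library were Dusp1, Ehf, Elf3, Hist1h2bl, Hist1h3a, Hoxd3, Hoxd10, Hsd11b2, Igf2, Scnn1a and Slc16a3, and H2-K1, checked only without AB library 1, lost its call there. Over all alternatives 227 results for named genes lost their call, 31 gained one and 0 turned in direction. With the replicate number as a block 330 and 320 genes were called (221 and 171). Same-numbered libraries of different clones had correlations of -0.127 to 0.162 and 6 of 16 libraries were nearest to their own number, so that the numbers were not read as a pairing. Genes near 0.2 CPM rest on few counts.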

Other observations

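AB was also placed among all 13 clones of the series, ciliated and mutant clones included, as a description with no test and with CPM scaled over all 52 libraries. The paper states that ciliated cells were starved of serum to induce cilia, although their labels also give 10% serum. Culture therefore differs between AB and the ciliated clones. Of the 12 genes with the largest increases, 5 had their highest mean in AB. For Fgf21, Eomes, Pitx1 and Artn each AB library was above every library of the other 12 clones. The next clone had a mean of 2.42 CPM for Fgf21, 3.06 for Eomes, 4.75 for Pitx1 and 10.3 for Artn. AB was also the highest for Sp6, the fifth, where the next clone had 11.8 CPM. The other 7 were higher by mean in other clones: AB had rank 3 for Epb4.1l4b, Tchh, Fut1 and Ppp1r26, rank 5 for Oit1, rank 6 for Kcnh2 (5.16 CPM, against 34.3 in the highest clone, the ciliated Wdr60 mutant) and rank 7 for Adcy1 (33.8 CPM, against 87.4 in the highest, ciliated Wdr34 mutant clone 1). Among the stress genes placed in this way, Trib3 was also highest in AB, and the next clone had 147 CPM. Nupr1 and Ddit3 were not highest in AB. Nupr1 had rank 4 (44.02 CPM, against 80.5 in the highest, ciliated Wdr34 mutant clone 1). Ddit3 had rank 3 (52.02 CPM, against 74.13 in the highest, ciliated Wdr34 mutant clone 3). Of the epithelial genes that rose, Cldn3 had rank 2, Rab25 rank 3 and Cldn8 rank 7. Zfp9 and Cftr were wholly below all 12 other clones, whose lowest means were 2.73 and 5.40 CPM. Tnc, Cp and Cbs were lowest in AB by mean as well. The remaining decreases were not: Il5ra, Trib2 and Adgrb2 had rank 12 from the highest of 13, Atoh8 rank 9, and Npy2r, Gm2115 and Elfn1 rank 8. For Atoh8 4 clones lay wholly below AB, and 3 did for each of Npy2r, Gm2115 and Elfn1. Zeb1 and Vim had rank 8 from the highest of 13. All clones below AB for Vim were ciliated (3.48 to 30.9 CPM), and the other 5 non-ciliated clones had 189.9 to 658 CPM. For Zeb1 the clones below AB were 4 ciliated ones and the non-ciliated Wdr60 mutant (1.89 CPM against 2.96 in AB).

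The chromosome medians, taken as differences in log2 CPM from non-ciliated controls 1 to 3 (for each of these, from the other 2), were -0.58 in AB for chromosome 6, -0.52 in the non-ciliated Wdr60 mutant, -0.54 in the ciliated Wdr60 mutant and -0.50 in the ciliated control H12, against -0.084 to 0.088 in the other 9 clones. For chromosome 18 AB had -0.40 and the other 12 clones -0.13 to 0.19. For the 4 Y-linked genes AB had -0.82 and the others -0.13 to 0.41. By library the AB value was -1.28 in library 1 and -0.76 to -0.63 in libraries 2 to 4. On chromosome 3 AB had 0.48 over the first part and 0.13 over the last, whereas the non-ciliated Wdr34 mutant had 0.47 and 0.49, ciliated Wdr34 clone 1 had 0.41 and 0.35, and H12 had 0.37 and 0.33. The parts differed more in AB than in those 3 clones, a difference that was not tested. Control 1 had 0.25 and 0.33 over the first and last part. Control 3 had -0.42 and -0.39, and ciliated control D8 had -0.23 and -0.24. The remaining clones had 0.059 to 0.17 and 0.033 to 0.12. Control 3 is among the clones from which the AB differences were taken.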
